A study of Homo sapiens with 11 samples.

Results

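MTHFD1, CTPS1, RRM2 and GART encode enzymes that make nucleotides or carry the one-carbon units of folate used to make them. These 4 genes, of 19974 protein-coding genes on chromosomes 1 to 22 and X, were chosen by their peaks in the deposited lists: each has a peak summit within 1000 bp of an end of its RefSeq span in at least 1 list. They hold 7 of the 5435 regions in the 5 lists, namely 3 in edit_myc_FLAG, 3 in myc_FLAG, 1 in endog_myc and 0 in either IgG list. Over all 19974 genes, 4.27% had such a region in edit_myc_FLAG, 1.65% in myc_FLAG, 1.80% in endog_myc, 0.0200% in ms_IgG and 0.0851% in rbt_IgG. Having a region chose the genes, so their presence, fold and rank are a description, nothing is read from their count, and none was tested. MTR and RRM2B, genes of the same pathways, also met this distance limit and are not among the 4.

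Binding was measured by CUT&RUN, in which an antibody brings a nuclease to its target in permeabilised cells and the DNA it cuts free is sequenced. All 11 libraries came from HEK293T, an established line derived from human embryonic kidney and expressing SV40 large T antigen. The mouse FLAG antibody was used on cells labelled edit_myc_FLAG (3 libraries) and myc_FLAG (3 libraries), and the rabbit myc antibody on endogenous myc (endog_myc, 3 libraries). Background was 1 library with mouse IgG (ms_IgG) and 1 with rabbit IgG (rbt_IgG). The sources used here do not give what "edit" means, how the tagged protein was expressed or whether a line was 1 clone. Each target group has 1 merged list, so nothing here measures the spread between its replicates. Read depth is unknown, and a missing region means only that no peak passed the caller's threshold.

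MYC is a transcription factor that pairs with MAX and binds the E-box, a short palindromic DNA motif, mostly near gene starts. Genes of purine, pyrimidine and folate metabolism are among its textbook targets, since dividing cells need nucleotides for RNA and DNA. MTHFD1 interconverts the one-carbon forms of tetrahydrofolate in the cytosol, and GART uses such a form while it builds the purine ring. CTPS1 turns UTP into CTP, and RRM2 is the small subunit of ribonucleotide reductase, which makes the deoxynucleotides.

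The promoter sequences show which motifs lay under or beside the regions. All 4 genes were matched by symbol in the RefSeq table of promoters (GRCh38.p14, the assembly of hg38), which gives 250 bases before and 50 after each annotated start. Letters printed here are 5′ to 3′ on the strand of the gene and stop at the start or, for RRM2, cover 30 bases at each summit. Capitals mark the E-box CACGTG and the box CCAAT, which reads ATTGG on the opposite strand. CCAAT is the motif bound by the factor NF-Y and was added to the search after the sequences had been seen. The methionine synthase gene MTR, which was not among the 4 but had a myc_FLAG region, is shown for comparison.
MTHFD1, chr14:64388103-64388352, + strand: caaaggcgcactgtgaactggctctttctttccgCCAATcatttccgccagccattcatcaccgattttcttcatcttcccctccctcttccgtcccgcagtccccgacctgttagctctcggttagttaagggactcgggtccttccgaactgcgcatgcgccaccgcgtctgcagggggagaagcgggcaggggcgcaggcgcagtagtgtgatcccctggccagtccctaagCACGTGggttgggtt
CTPS1, chr1:40979446-40979695, + strand: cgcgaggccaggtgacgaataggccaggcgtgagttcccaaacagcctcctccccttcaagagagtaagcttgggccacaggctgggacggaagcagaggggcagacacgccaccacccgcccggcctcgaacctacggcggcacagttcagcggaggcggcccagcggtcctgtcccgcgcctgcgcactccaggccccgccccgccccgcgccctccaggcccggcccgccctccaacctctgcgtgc
RRM2 at the endog_myc summit, chr2:10122661-10122690, + strand: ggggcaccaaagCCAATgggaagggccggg
RRM2 at the edit_myc_FLAG summit, chr2:10122756-10122785, + strand: cgtcctgtcctggctgctcgctctgcttcg
GART to SON, chr21:33542894-33543037, - strand: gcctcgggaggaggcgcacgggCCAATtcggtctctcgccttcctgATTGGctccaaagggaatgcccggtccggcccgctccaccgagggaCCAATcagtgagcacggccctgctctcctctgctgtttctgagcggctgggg
MTR, chr1:236795031-236795280, + strand: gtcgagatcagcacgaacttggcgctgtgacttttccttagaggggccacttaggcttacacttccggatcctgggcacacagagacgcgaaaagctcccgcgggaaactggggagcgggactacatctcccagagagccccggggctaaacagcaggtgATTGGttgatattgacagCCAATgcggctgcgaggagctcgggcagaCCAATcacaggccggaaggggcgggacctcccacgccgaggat

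MTHFD1, the folate enzyme, had a region in both FLAG lists and no endog_myc or IgG region within 50000 bp of either end. Its span runs from 64388353 to 64460025 on chromosome 14, on the + strand, and both regions lay just outside the span, upstream of the start. The edit_myc_FLAG region, from 64388076 to 64388278, had a fold enrichment of 7.20 and a −log10 q of 7.76, both as given by the authors' peak caller. It ranked 402 of 2172 by fold, that is 18.5% of the list from its top, and 71 of the 696 regions at gene ends. The myc_FLAG region, from 64388036 to 64388245, had a fold of 5.19 and a −log10 q of 3.31 and ranked 744 of 1290, 57.7% from the top. MTHFD1 thus stood highest among the genes in the edit_myc_FLAG list and lowest among them in myc_FLAG. Ranks are within lists of different length, and their difference is no measure of a change in binding.

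The MTHFD1 regions overlapped by 170 bp, 83.7% of the edit_myc_FLAG region and 81.0% of the myc_FLAG region, but their summits were apart. The edit_myc_FLAG summit at 64388232 lay 121 bp from the start and the myc_FLAG summit at 64388079 lay 274 bp from it, a gap of 153 bp. Over the 172 overlapping pairs of gene-end regions in these lists, the median gap was 67 bp, and 79.1% of pairs had a smaller gap than MTHFD1. MTHFD1 was the only one of the 4 genes with the E-box in its searched window, with the first base at position -15 from the start. That E-box was outside both regions, 60 bp beyond the edge of the edit_myc_FLAG region and 106 bp from its summit. A CCAAT box at position -216 was inside both regions, 91 bp from the edit_myc_FLAG summit and 58 bp from the myc_FLAG summit. The window held 86.7% of the bases of the edit_myc_FLAG region and 68.1% of the myc_FLAG region. It did not hold the myc_FLAG summit, so the sequence at that summit was not searched and a nearer motif could be missed.

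CTPS1, the CTP synthase, also had regions in both FLAG lists and none of the other lists within 50000 bp. Its span runs from 40979696 to 41012565 on chromosome 1, on the + strand, and its summits lay inside the span, just downstream of the first of 2 annotated starts. In edit_myc_FLAG the region from 40979727 to 40980062 had a fold of 5.91, a −log10 q of 4.85 and rank 790 of 2172 (36.4% from the top). In myc_FLAG the region from 40979691 to 40979916 had a fold of 6.48, a −log10 q of 6.01 and rank 444 of 1290 (34.4% from the top). By −log10 q the same regions stood 51.2% and 62.6% from the top, so their places were close by fold and farther apart by −log10 q.

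The CTPS1 summits, at 40979854 and 40979878, were 158 and 182 bp from the start and 24 bp from each other, with 20.9% of the 172 gene-end pairs closer. The regions shared 190 bp, which was 56.5% of the edit_myc_FLAG region and 84.1% of the myc_FLAG region. Neither the E-box, its variant CACGCG nor the CCAAT box was found in the promoter window. The window held 5.65% of the bases of the edit_myc_FLAG region and 24.3% of the myc_FLAG region, and neither summit, so the sequence at the CTPS1 summits was not searched. With a GC content of 71.7%, the window at the first start exceeded 78.8% of the 22156 windows of protein-coding genes, whose median was 62.3%. The window at the second start, 40988519, had 35.3% and exceeded 2.27% of them.

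RRM2, the ribonucleotide reductase subunit, was the gene with an endog_myc region and had none in myc_FLAG or IgG within 50000 bp. Its span runs from 10122568 to 10211010 on chromosome 2, on the + strand, with annotated starts at 10122568 and 10122739. The edit_myc_FLAG region from 10122687 to 10122890 covered the second start, with a fold of 5.36, a −log10 q of 3.55 and rank 1092 of 2172 (50.3% from the top). The endog_myc region from 10122641 to 10122869 had a fold of 3.97 and rank 1137 of 1359 (83.7% from the top). Its −log10 q was 1.35, where the lowest in the list was 1.32, and only 2 of the 1359 regions had a lower value. Among the 287 endog_myc regions at gene ends it ranked 284 by fold, so the single endogenous myc region at these genes was near the caller's threshold.

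The RRM2 regions overlapped by 183 bp (89.7% of the edit_myc_FLAG region and 79.9% of the endog_myc region), with summits 95 bp apart. Of 183 overlapping gene-end pairs between these lists, 119 were closer, and the median gap was 65 bp. The endog_myc summit at 10122676 fell on a CCAAT box, the last of a row of 3 with first bases at 10122616, 10122646 and 10122673. The edit_myc_FLAG summit at 10122771 lay 94 bp from that box, and none of the boxes was inside its region. No E-box and no CACGCG was found in the RRM2 windows, which held 148 of the 229 bases of the endog_myc region and 102 of the 204 bases of the edit_myc_FLAG region.

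GART, the purine enzyme, had a region in myc_FLAG only, and that region was nearer to its neighbour. The span of GART runs from 33503931 to 33542893 on chromosome 21, on the - strand, and the divergent gene SON, a nuclear speckle protein that acts in splicing, starts at 33543038. The region from 33542869 to 33543180 covered the 144 bp between the spans. It had a fold of 6.54, a −log10 q of 6.77 and rank 437 of 1290 (33.9% from the top), next to CTPS1. Its summit at 33542989 lay 96 bp from GART and 49 bp from SON, and which gene it belongs to cannot be told apart. The summit fell on the middle one of 3 CCAAT boxes, and the others were 22 and 44 bp away. In edit_myc_FLAG the nearest region lay 12340 bp from the far end of GART, had a fold of 5.16 and was 125 bp from an end of DNAJC28, and the other lists had none within 50000 bp. SON was the only other gene with an end within 1000 bp of a summit of the 4 genes.

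**Figure D1:**
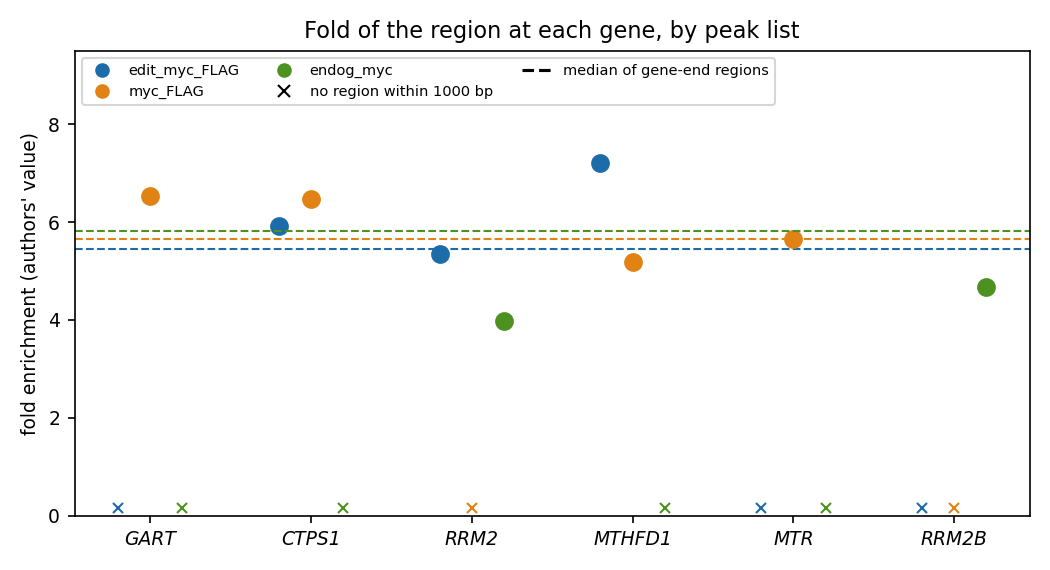
Fold enrichment, as given by the authors, of the region at each gene (points) in the 3 target lists, with crosses for lists without a region within 1000 bp and dashed lines for the median fold of each list's gene-end regions. MTHFD1 in edit_myc_FLAG has the highest fold at 7.20 and RRM2 in endog_myc the lowest at 3.97, and none of the 6 genes has a point in all 3 lists.

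The folds of the 4 genes lay on either side of the medians of their lists. The median fold of gene-end regions was 5.45 in edit_myc_FLAG, 5.66 in myc_FLAG and 5.81 in endog_myc. MTHFD1 and CTPS1 lay above it in edit_myc_FLAG, CTPS1 and GART in myc_FLAG, and RRM2 lay below it in both of its lists. The regions were 203 to 336 bp wide, and gene-end regions had median widths of 235 bp (edit_myc_FLAG), 266 bp (myc_FLAG) and 293 bp (endog_myc). None of the 7 regions overlapped an IgG region.

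**Figure D2:**
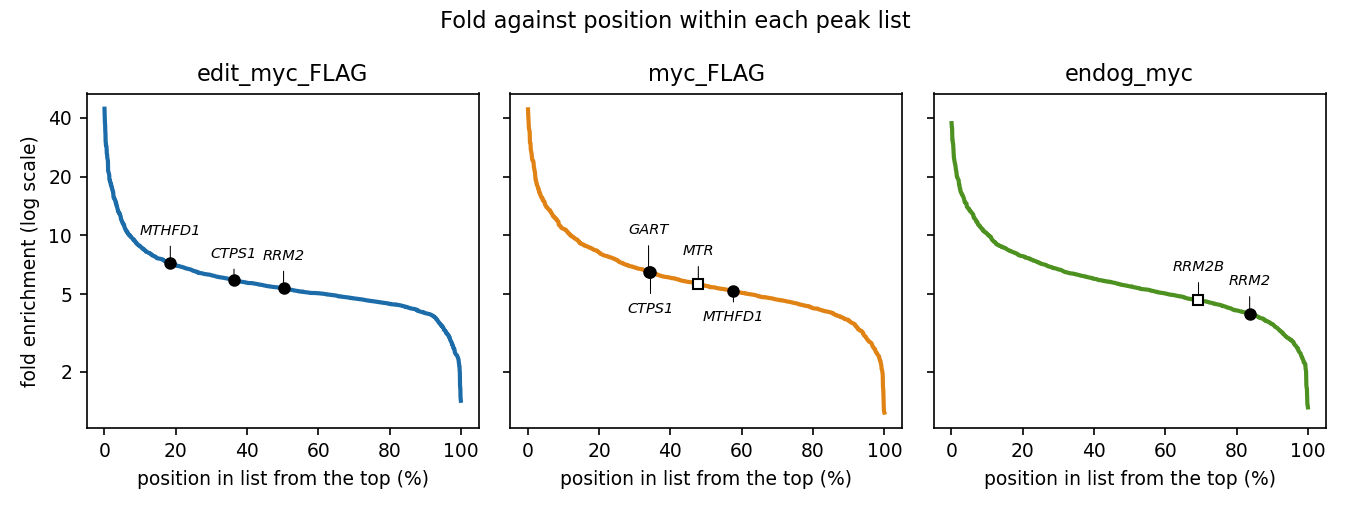
Fold (log scale) of all regions of each target list in falling order, against the position in the list as a percent from its top; filled circles are the 4 genes and open squares are MTR and RRM2B. The genes sit on the flat middle of the curves, from 18.5% (MTHFD1, edit_myc_FLAG) to 83.7% (RRM2, endog_myc), away from the steep top.

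The lists that held a gene differed among the 4. MTHFD1 and CTPS1 shared their pattern, both FLAG lists and no other, with 71 other protein-coding genes of the 73 in that class. RRM2 was among 83 genes in edit_myc_FLAG and endog_myc only, and GART among 81 in myc_FLAG only. None of the 4 was among the 138 genes in all 3 target lists and no IgG list. The FLAG lists differ in length and share the antibody, and the difference between them was not tested.

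Among genes with regions in the same lists, those with the nearest folds were named by the distance of their log2 folds over the 2 lists. For MTHFD1, out of 72 genes, these were HSPA5 (fold 7.17 in edit_myc_FLAG and 5.40 in myc_FLAG), the endoplasmic reticulum chaperone BiP, NF2 (7.56 and 5.53), the tumour suppressor merlin, and HAGH (7.62 and 5.69), a glyoxalase. For CTPS1 they were ARRDC4 (5.89 and 6.53), an arrestin-domain protein, DACT3 (6.10 and 6.48), an antagonist of Wnt signalling, and ENSA (5.55 and 6.76), an inhibitor of a mitotic phosphatase. For RRM2, out of 82, they were TCF19 and CCHCR1, which share a region (5.23 in edit_myc_FLAG and 4.01 in endog_myc), and NIPAL3 (5.36 and 4.27). With only 2 lists per gene, this likeness is a description of fold values.

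**Figure D3:**
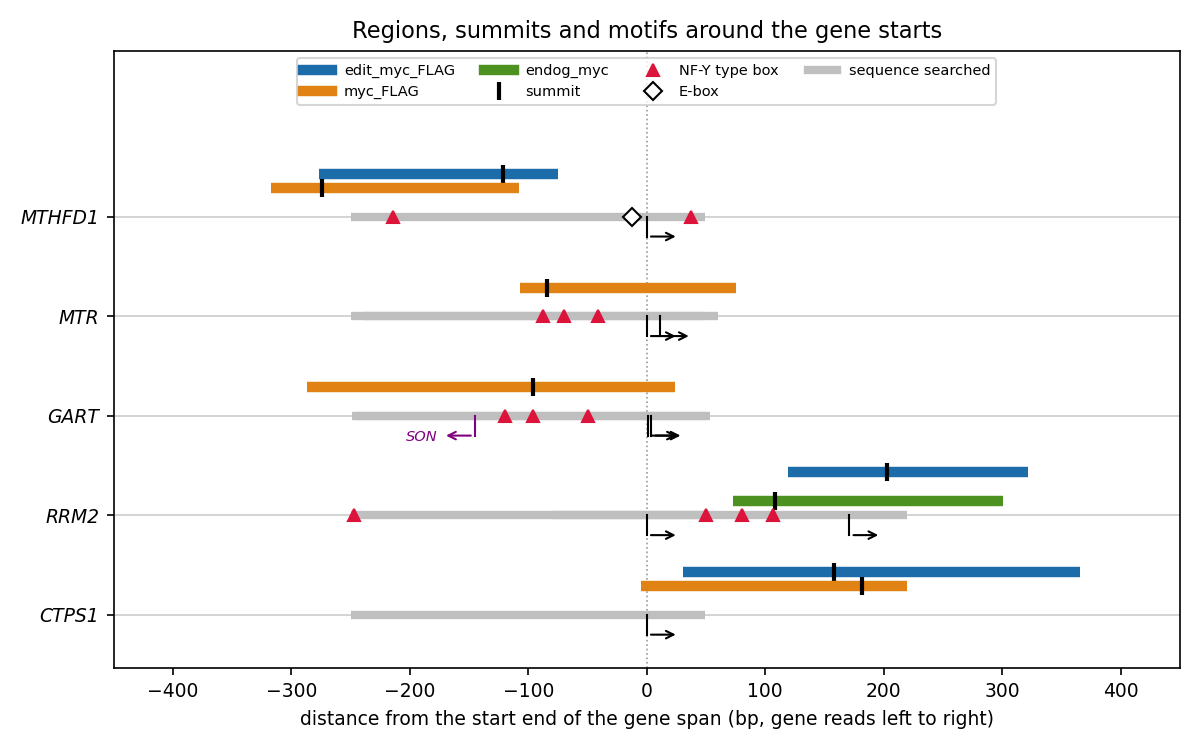
Regions (bars), summits (ticks) and motifs (triangles for the box bound by NF-Y, a diamond for the E-box) around the start of each gene, in bp from the start end of its span, with the gene reading left to right; arrows are annotated starts and grey bars the sequence searched. The summits of MTR, GART and RRM2 in endog_myc sit on or within 2 bp of a box, and the E-box of MTHFD1 lies between its regions and the start.

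The position of the summits was compared with other genes. Measured from the start end of the span, MTHFD1 and GART had summits upstream and CTPS1 and RRM2 downstream. RRM2 has a second annotated start at 10122739, covered by both of its regions. From that start its edit_myc_FLAG summit lay 32 bp downstream and its endog_myc summit 63 bp upstream. Over all protein-coding genes in the promoter table with a summit within 1000 bp of the start end of the span, the summit was upstream in 59.7% of gene and region pairs in edit_myc_FLAG, 64.2% in myc_FLAG and 71.2% in endog_myc. The interquartile range of these positions was -200.5 to 135.5 bp for edit_myc_FLAG. It was -222 to 101 bp for myc_FLAG and -233.25 to 49.5 bp for endog_myc. Both CTPS1 summits lay downstream of that range in their lists, and the myc_FLAG summit of MTHFD1 lay upstream of it. Both RRM2 summits lay downstream of it from the start end of the span. From the second start they fell inside it, but the range was measured from the start end of the span for every gene, so that is not a like comparison.

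Motifs were counted on both strands in the 300-base windows. Of the 22156 windows of protein-coding genes, 8.34% held CACGTG, 14.2% CACGCG and 34.6% CCAAT. Counted by gene, over all windows of a gene, the shares of the 15813 genes in the table were 10.9%, 18.1% and 42.1%. Of the 4 genes, 1 held CACGTG (MTHFD1), 0 held CACGCG and 3 held CCAAT (MTHFD1, RRM2 and GART). The CCAAT share was 71.1% of 712 genes with an edit_myc_FLAG summit at the start, 83.2% of 279 with a myc_FLAG summit and 82.4% of 306 with an endog_myc summit. For CACGTG the shares in the same lists were 13.6%, 15.4% and 11.1%, and for CACGCG 23.3%, 25.1% and 23.2%.

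CCAAT was also in the window of 15 of the 15 genes with a rabbit IgG summit at the start and of 3 of the 3 with a mouse IgG summit. A box within 25 bp of the summit was found for 32.4% of the 386 edit_myc_FLAG summits inside a window, 42.1% of 159 in myc_FLAG and 45.4% of 183 in endog_myc. It was found for 4 of the 4 rabbit IgG summits there and for 0 of 1 mouse IgG summit. Of all bases in the windows, 8.45% were that close to a box. The GART summit and the endog_myc summit of RRM2 were on a box, while the edit_myc_FLAG summits of MTHFD1 and RRM2 were 91 and 94 bp from one. A match is a description of letters and shows neither a binding site nor a cause, and the part of CCAAT in these regions was not tested.

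The other genes of these pathways were described with a list of 60 genes in 6 roles, which includes the 4. A region at an end was present for 3 of the 60 genes in edit_myc_FLAG (5.0%), 4 in myc_FLAG (6.67%) and 2 in endog_myc (3.33%). These counts include the 4 genes picked for having a region. Among the other 56 genes, edit_myc_FLAG had 0 with a region, since the 3 listed genes with one are all among the 4. In myc_FLAG there was 1 (MTR) and in endog_myc 1 (RRM2B), each 1.79% with a 95% Wilson interval of 0.316 to 9.45. The shares over all protein-coding genes were 4.27%, 1.65% and 1.80%, and the counts among the 56 cannot be judged against them. The 56 genes are those left after genes were picked for having a region, and a difference between them and the rest was not tested. No gene of the list had an IgG region at an end, which allows up to 5.0% of the 60 genes. The intervals cover counting error only.

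By role, purine synthesis had 1 of 13 genes with a target region (GART) and pyrimidine synthesis 1 of 6 (CTPS1). Deoxynucleotide synthesis had 2 of 8, RRM2 and RRM2B, and the folate cycle 2 of 16, MTHFD1 and MTR. Nucleotide salvage had 0 of 12 genes and the serine and glycine supply 0 of 5. Without a region at an end in any list were, among others, PPAT and PAICS of purine synthesis, CAD and DHODH of pyrimidine synthesis, TYMS and RRM1 of deoxynucleotide synthesis, and SHMT2 and MTHFD2 of the folate cycle. In all, 49 of the 60 genes had no region of any list within 50000 bp of an end. That share was not worked out over all protein-coding genes, so nothing is read from it. Within the nearer limit of 1000 bp, 6 of the 60 genes had a region of any list at an end. At that limit, 18909 of the 19974 protein-coding genes had none. The role counts and the 6 of 60 include the 4 genes picked for having a region, so nothing is read from them.

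MTR, the methionine synthase that takes a methyl group from folate, had a myc_FLAG region on chromosome 1 from 236795174 to 236795356. Its fold was 5.66, its −log10 q 5.08 and its rank 617 of 1290 (47.8% from the top). The summit lay 84 bp upstream of the start and 2 bp from a CCAAT box, and 3 such boxes were inside the region. MTR thus resembled GART in its list and in the boxes under its summit. Both traits are common in that list: CCAAT was in the window of 83.2% of the 279 genes with a myc_FLAG summit at the start. A box lay within 25 bp of 42.1% of the 159 myc_FLAG summits inside a window.

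RRM2B, the alternative small subunit of ribonucleotide reductase that is induced by p53, had an endog_myc region from 102238971 to 102239218 on chromosome 8. The fold was 4.68, the −log10 q 2.26 and the rank 942 of 1359 (69.3% from the top). Its summit was 104 bp outside the span of RRM2B. Both small subunit genes thus had an endog_myc region of low rank, with −log10 q values below the median of 5.23 for gene-end regions of that list.

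**Figure D4:**
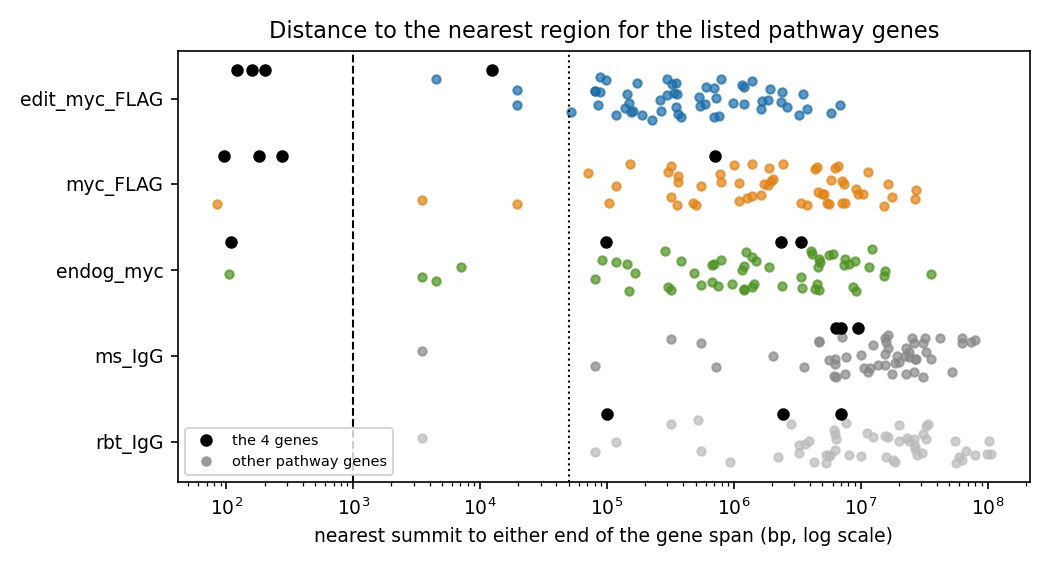
Distance (log scale) from either end of each of the 60 pathway genes to the nearest summit of each list, with the 4 genes in black; dashed and dotted lines mark 1000 and 50000 bp, and genes on a chromosome without a region in a list are left out. The summits within 1000 bp lie at 84 to 274 bp, and no summit lies between 274 and 2000 bp.

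Distance limits of 500 and 2000 bp gave the same number of genes in each list. The farthest summit within 1000 bp was that of MTHFD1 in myc_FLAG, at 274 bp, and pathway genes with their nearest summit beyond 1000 bp included AMT and SLC19A1. AMT, a subunit of the glycine cleavage system, had regions at 4500 bp in edit_myc_FLAG (fold 5.94) and 4523 bp in endog_myc (5.48), which lay 145 and 168 bp from TCTA. SLC19A1, the reduced folate carrier, had an endog_myc region inside its span at 7006 bp, with a fold of 3.91.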

How the data were processed

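CUT&RUN peak lists on hg38 were used: 1 list for the 3 libraries of each target group and 1 per IgG library. The submitters' processing notes name HOMER 4.10, MACS3 3.0.0b1, Bowtie2 2.4.5 and SAMtools 1.15. The sources used here do not give their roles, their options, the control for peak calling or whether reads or calls were merged. For each peak, the authors deposited the fold enrichment and the −log10 q that their caller wrote. The deposited summit offset, added to the start of the region, gave its position counted from 1. Depth is unknown.

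Regions were assigned to genes by the distance of the summit to either end of the RefSeq span (GRCh38.p14), within 1000 bp, with the nearest region sought up to 50000 bp. Strand and starts came from the RefSeq promoter table, which held 15813 of the 19974 protein-coding genes and 50 of the 60 pathway genes. Regions were shared when they overlapped by at least 1 bp. No test was run, since the members were chosen for having a region in these lists and lists merge replicates. The members, the pathway list and the settings were chosen with earlier results of these data known. Genes named are the 4 members, other genes with an end at a member summit, pathway genes with a region and the 3 next outside 1000 bp, and the 3 genes nearest in fold to each member in 2 lists (some items are not reported here); DNAJC28, TCTA, other genes nearest to those regions, and examples without a region were added after values were seen. Assignment was tested on simulated data. Python 3.11.15, pandas 2.3.3 and scipy 1.17.1 were used.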

Additional observations from a re-analysis of the deposited data

How the results depend on the processing

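The number of genes with a region was the same at 500 and 2000 bp, and with any base of the region in place of its summit, for the 4 genes and for the 60 pathway genes in each of the 5 lists. With a −log10 q of at least 5, the 4 genes fell from 3 to 1 in edit_myc_FLAG (MTHFD1) and from 1 to 0 in endog_myc, and the pathway genes from 3 to 1 and from 2 to 0. In myc_FLAG the 4 genes fell from 3 to 2 and the pathway genes from 4 to 3. The median −log10 q of all gene-end regions was 3.96 in edit_myc_FLAG, 4.72 in myc_FLAG and 5.23 in endog_myc. With the 1000 regions of highest fold, edit_myc_FLAG kept 2 of the 4 genes, myc_FLAG 3 and endog_myc 0. The full lists held 2172, 1290 and 1359 regions, and the share of other genes kept was not worked out. With only the start end, pathway genes in endog_myc fell from 2 to 1, since RRM2B has no entry in the promoter table. With only the nearest gene, GART gave way to SON in myc_FLAG. Ranked by −log10 q instead of fold, all 7 member regions stood lower in their lists: MTHFD1 in edit_myc_FLAG moved from 18.5% to 31.6% and RRM2 in endog_myc from 83.7% to 99.7%. Gene-end regions as a whole also had a median −log10 q below that of all regions, which was 4.95 in edit_myc_FLAG, 8.18 in myc_FLAG and 7.86 in endog_myc. Their median fold was above that of all regions, which was 5.36, 5.51 and 5.49 in the same order. The shift is thus not particular to the members. On chromosomes 1 to 22 and X without regions that overlap IgG, 6 of the 7 stood higher, with MTHFD1 in edit_myc_FLAG at 11.0%. That change was not worked out for other gene-end regions. No paired analysis was possible because each target list merges its 3 libraries, and for the same reason no replicate could be left out. Depth, which is unknown, limits every statement on a missing region.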

Other observations

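Further pathway genes had their nearest region at an end of another gene. CMPK1, the UMP and CMP kinase, had regions 19549 bp away in edit_myc_FLAG (fold 5.05) and 19491 bp away in myc_FLAG (fold 5.58), which lay 655 and 597 bp from STIL, a centriole gene. MTHFD2, the mitochondrial folate enzyme, had an edit_myc_FLAG region 19670 bp away with a fold of 4.51, which was 66 bp from MOB1A. The other genes named here were chosen after their values were seen.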
